A study of Mus musculus with 9 samples.

Results

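The unfolded protein response and the folding machinery of the endoplasmic reticulum (ER) were followed in mouse granulosa cells through the first 6 h after an ovulatory stimulus. The set holds 35 genes chosen by symbol: 15 ER chaperones and folding enzymes, 8 genes of ER-associated degradation and translocation, 4 stress sensors and transcription factors, and 8 genes of the ATF4 branch. All 35 were found among the 25059 gene identifiers of the deposited tables. Granulosa cells, the somatic cells around the oocyte, came from ovaries of Kunming mice at postnatal day 21 and were analysed by bulk RNA-seq. The 3 groups of 3 libraries each were taken 0 h, 1 h and 6 h after 5 IU of hCG, a hormone that acts on the luteinizing hormone receptor. All mice, those of the 0 h group included, had first been given 5 IU of PMSG for 48 h, a hormone that drives follicles to grow. No genotype or strain difference separates the groups. Mice kept without hCG to the same clock hours were not analysed here, so the effects of hCG and of the hour of the day cannot be told apart.

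Secreted and membrane proteins enter the ER through the SEC61 channel and fold there with the help of chaperones, lectins and disulfide isomerases. Proteins that fail to fold are drawn back into the cytosol and degraded. When unfolded proteins build up, 3 membrane sensors respond: IRE1 (gene *Ern1*) splices *Xbp1* mRNA, ATF6 is cleaved to release a transcription factor, and PERK (gene *Eif2ak3*) phosphorylates eIF2 alpha, which slows translation while favouring that of ATF4. XBP1 and ATF6 act mainly on chaperone and degradation genes, whereas ATF4 acts on genes of amino acid supply, redox balance and feedback on eIF2 alpha. ATF4 can also be raised by other eIF2 alpha kinases, in what is called the integrated stress response. Granulosa cells secrete inhibins, activins and follistatin, and their cargo changes after the luteinizing hormone surge.

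Levels are given as FPKM, the number of fragments per kilobase of a transcript, scaled to the mapped total, added up over all rows of a gene. The sum of FPKM over all genes was 491920 to 495500 at 0 h, 527034 to 570986 at 1 h and 513434 to 539279 at 6 h, and 13587 to 13862 genes reached 1 FPKM in a library. The number of reads behind a value is unknown. Differences are log2 changes of FPKM + 1, a scale on which genes of low level appear to change less than they did. They come with their SE and with Benjamini-Hochberg adjusted p-values from limma over 14535 genes, and a gene was called at an adjusted p below 0.05. Whether the 3 replicates of a group were separate animals is not stated in the labels, so p-values measure only the spread between libraries, which may be technical. Of 9 granulosa cell markers, all were detected in every library, with a summed level of 8793 to 9358 FPKM at 0 h, 9141 to 13725 FPKM at 1 h and 3766 to 4189 FPKM at 6 h. Most of that sum came from the inhibin subunit genes *Inha* and *Inhba*, which averaged 5413 and 2294 FPKM at 0 h. Markers also changed with time, *Cyp19a1* averaging 191, 1074 and 20.5 FPKM at 0, 1 and 6 h. The sum is therefore no measure of cell content alone. In bulk samples, fewer cells of a type and less RNA per cell cannot be told apart.

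Of the 35 genes, 33 passed the filter of 1 FPKM in at least 3 libraries. The 2 others, *Trib3* and *Chac1*, lay below it. At 1 h against 0 h, 9 of the 33 were called higher, where 9.68% of all genes tested were called higher, and 0 were called lower, where 5.98% of all genes were. The 33 held 11 genes that were higher and 0 that were lower at an unadjusted limma p below 0.05. At 6 h against 0 h, 7 were called higher and 19 lower, where 28.8% of all genes were called higher and 27.9% lower. At 6 h against 1 h, 4 were called higher and 25 lower, where 26.7% of all genes were called higher and 26.9% lower. All 3 libraries of the later time lay above all 3 of the earlier in 12 genes at 1 h against 0 h, 8 at 6 h against 0 h and 5 at 6 h against 1 h, where 18.3%, 32.9% and 30.5% of all genes did so. They lay below in 0, 21 and 25 genes, where 17.2%, 32.1% and 30% of all genes did. With each library scaled to the mean FPKM sum, 7 were called higher and 1 lower at 1 h against 0 h, where 1002 of 14553 genes were called higher and 2634 lower, against 1407 and 869 without scaling. Leaving out 1 h replicate 2 gave 12 rises and 0 falls, and leaving out 1 h replicate 3 gave 7 and 0. The median log2 change of the 33 was 0.17 at 1 h against 0 h, -0.34 at 6 h against 0 h and -0.54 at 6 h against 1 h, beside medians of -0.0046, -0.0041 and -0.00075 over all genes tested.

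**Figure D1:**
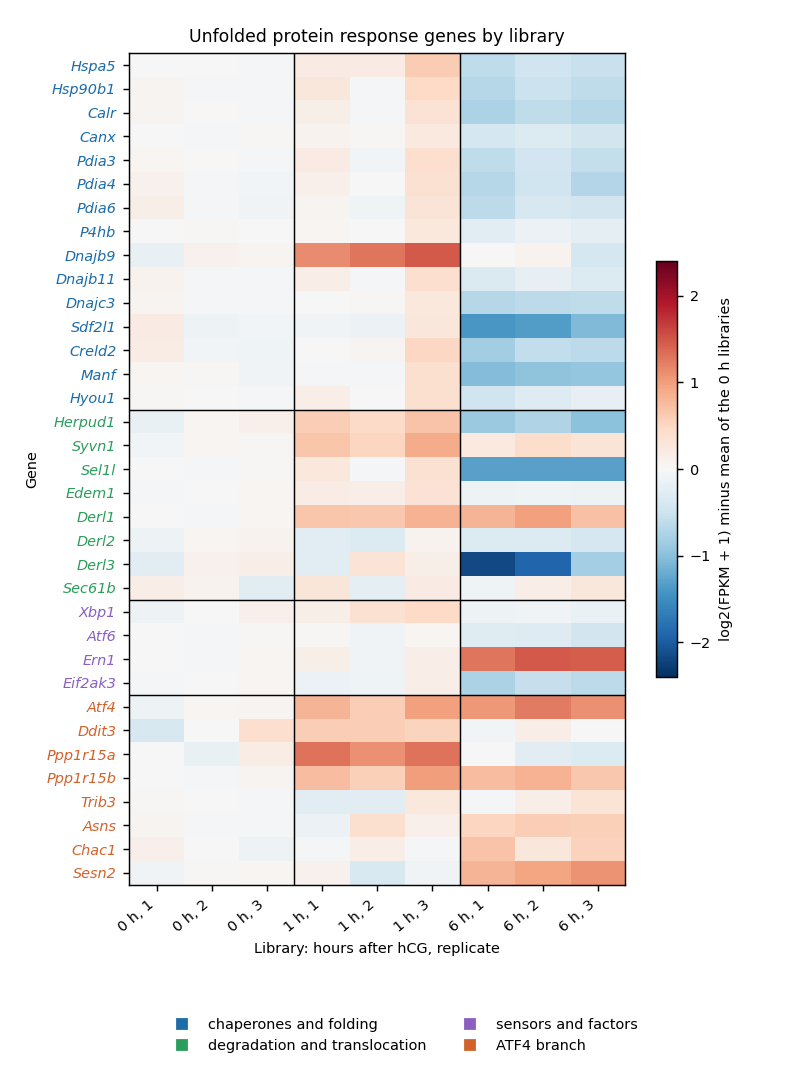
Each row is a gene, each column a library (hours after hCG, replicate), and colour gives log2(FPKM + 1) minus the mean of the 3 libraries at 0 h. The chaperone rows turn blue at 6 h in all 3 libraries, except *Dnajb9*, while *Ern1*, *Atf4*, *Ppp1r15b*, *Derl1*, *Asns* and *Sesn2* turn red there.

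The 33 genes fell into a few time courses. The most frequent, with 17 genes, was no call at 1 h and a fall at 6 h against both earlier times, and it held 13 of the 15 chaperone and folding genes (all but *Dnajb9* and *P4hb*) together with *Sel1l*, *Derl3*, *Atf6* and *Eif2ak3*. A rise at 1 h with no call at 6 h against 0 h was seen for 4 genes, *Dnajb9*, *Xbp1*, *Ddit3* and *Ppp1r15a*, all of them lower at 6 h than at 1 h. *Herpud1* rose at 1 h and fell at 6 h against 0 h. *Atf4*, *Syvn1*, *Derl1* and *Ppp1r15b* rose at 1 h and were still higher than 0 h at 6 h. A rise at 6 h alone was called for *Ern1*, *Asns* and *Sesn2*. *Derl2* was called only at 6 h against 0 h, *P4hb* and *Edem1* only at 6 h against 1 h, and *Sec61b* in no comparison.

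Chaperones and folding enzymes fell together at 6 h. Of 15, 13 were called lower and 0 higher at 6 h against 0 h, with a median log2 change of -0.54, and all 15 were called lower at 6 h against 1 h, with a median of -0.79. At 1 h against 0 h only 1 of the 15, *Dnajb9*, was called, and the median was 0.16. Among all genes tested, 27.9% were called lower at 6 h against 0 h and 26.9% at 6 h against 1 h. At 1 h against 0 h 9.68% were called higher, so the chaperone count there was near the background. Their summed level was 5355 ± 183 FPKM at 0 h, 6208 ± 909 FPKM at 1 h and 3638 ± 191 FPKM at 6 h (SD, n = 3 each). As a share of all FPKM this was 1.06 to 1.12% at 0 h, 1.03 to 1.26% at 1 h and 0.672 to 0.710% at 6 h. The 6 h libraries lay below all 6 others on both scales.

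*Hspa5* (ENSMUSG00000026864, chromosome 2, 34771970 to 34777547, mm10) encodes BiP, the HSP70 chaperone of the ER lumen, which also holds the stress sensors inactive. It had 783, 787 and 764 FPKM at 0 h, 894, 892 and 1193 FPKM at 1 h, and 508, 562 and 539 FPKM at 6 h. All 3 libraries at 1 h lay above those at 0 h and all 3 at 6 h lay below them. The log2 change at 6 h against 0 h was -0.54 ± 0.11 (SE, adjusted p = 0.00265), while the change at 1 h against 0 h, 0.34 ± 0.11, did not pass (adjusted p = 0.0727). Without 1 h replicate 2 it was 0.41 (adjusted p = 0.0426).

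The RefSeq promoter window of *Hspa5* is shown because it carries the ER stress response element (ERSE), the site through which ATF6 and XBP1 are known to act on chaperone genes. Windows run from 250 bases before to 50 bases after the RefSeq start site in GRCm38.p6 and are printed on the strand of the gene. The ERSE searched was CCAAT, any 9 bases, then CCACG, on either strand, and is in capitals. The *Hspa5* window lies at chr2:34771840-34772139, plus strand.
*Hspa5* promoter: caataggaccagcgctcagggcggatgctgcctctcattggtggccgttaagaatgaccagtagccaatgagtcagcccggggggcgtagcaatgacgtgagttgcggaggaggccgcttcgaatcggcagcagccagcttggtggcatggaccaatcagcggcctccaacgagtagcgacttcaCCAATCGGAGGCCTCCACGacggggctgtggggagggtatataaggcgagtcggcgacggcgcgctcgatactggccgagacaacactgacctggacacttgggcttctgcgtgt

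A total of 30 of the 35 genes had a window in the RefSeq table. The ERSE was found in 9 of these 30, in 7 of the 13 chaperone and folding genes and in 2 of the 7 degradation genes. It was found in 0 of the 7 ATF4 branch genes and in 0 of the 3 sensors and factors. It was found in 37 of all 27025 genes with windows (0.137%). The sites are given so that the spacer between the ends can be compared. They are written in the direction in which the motif reads, with the CCAAT and CCACG ends in capitals and the start site counted as position 0.
*Hspa5*, position -65 to -47, same strand: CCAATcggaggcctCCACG
*Hsp90b1*, position -212 to -194, same strand: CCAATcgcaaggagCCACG
*Hsp90b1*, position -107 to -89, opposite strand: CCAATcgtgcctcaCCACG
*Calr*, position -162 to -144, opposite strand: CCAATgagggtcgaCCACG
*Canx*, position -145 to -127, same strand: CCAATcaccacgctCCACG
*Pdia6*, position -98 to -80, same strand: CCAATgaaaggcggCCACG
*Dnajc3*, position -105 to -87, same strand: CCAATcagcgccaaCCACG
*Creld2*, position -126 to -108, opposite strand: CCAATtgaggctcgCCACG
*Syvn1*, position -44 to -26, same strand: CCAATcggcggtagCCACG
*Derl3*, position -156 to -138, opposite strand: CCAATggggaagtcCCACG
The 9 bases between the ends differed between all 10 sites. *Hsp90b1* had a pair of sites in opposite directions. Of the 9 genes with an ERSE, 8 were called lower at 6 h against 0 h and 1, *Syvn1*, higher, beside 19 lower and 7 higher among the 33 tested. Of the 28 other genes in the RefSeq table with an ERSE, 12 were tested, of which 6 were lower and 2 higher (median log2 change -0.29). Among the lower, *Xlr3b* and *Xlr3c* were matched to the same deposited gene (-0.76), which therefore enters the counts and the median 2 times. *Ero1b* (-0.84), also lower, is in the further list of folding genes below as well. Over all tested genes 27.9% were lower and 28.8% higher. A match in these letters is a description of the window and not evidence of binding.

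**Figure D2:**
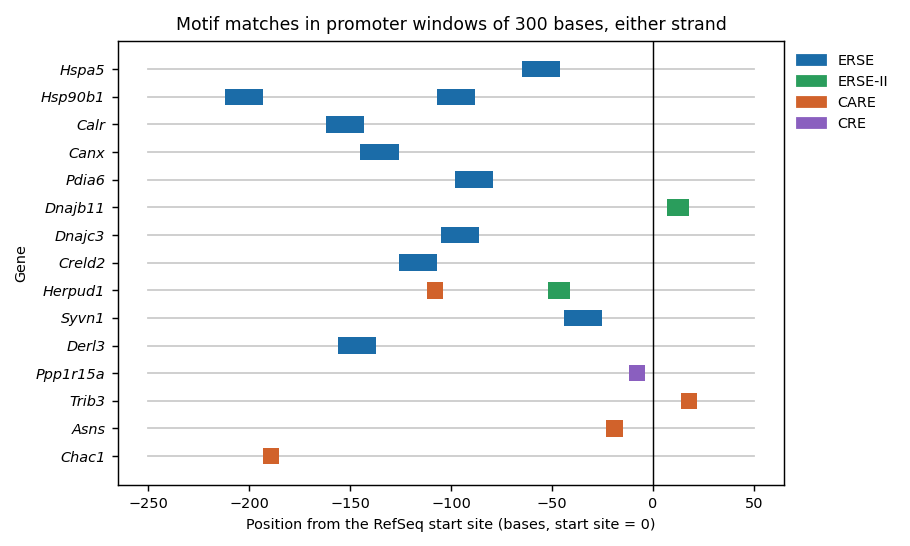
Positions of motif matches on either strand in the windows of the 15 genes that held at least 1, in bases from the RefSeq start site (0). ERSE matches, in blue, sit between 212 and 26 bases before the start site in chaperone and degradation genes, and C/EBP-ATF response elements (CARE), in orange, are seen in *Herpud1*, *Trib3*, *Asns* and *Chac1*.

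The most abundant of the set was *Hsp90b1* (ENSMUSG00000020048, chromosome 10, 86690209 to 86705509, mm10), which encodes GRP94, the HSP90 of the ER. Its mean over the 9 libraries was 1013 FPKM, rank 34 of all genes by FPKM, ahead of *Calr* at 873 FPKM and *Hspa5* at 769 FPKM. *Hsp90b1* had 1122, 1029.8 and 1052 FPKM at 0 h, 1289, 1036 and 1489 FPKM at 1 h, and 661, 742 and 699 FPKM at 6 h. The 6 h libraries lay below all others, with a log2 change of -0.61 ± 0.13 against 0 h (adjusted p = 0.00233), while 1 h and 0 h overlapped.

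The lectin chaperones hold newly made glycoproteins in the ER. *Calr*, which encodes soluble calreticulin, had 1001, 948 and 921 FPKM at 0 h, 1048, 931 and 1221 FPKM at 1 h, and 564, 627 and 596 FPKM at 6 h. *Canx*, which encodes its membrane-bound counterpart calnexin, had 316, 308 and 318 FPKM at 0 h, 334, 320.0 and 370.3 FPKM at 1 h, and 234, 251 and 230.3 FPKM at 6 h. Both were lower in every 6 h library than in any other, with log2 changes of -0.68 ± 0.10 and -0.40 ± 0.072 against 0 h (adjusted p = 0.000368 and 0.00101). At 1 h, *Canx* lay above 0 h in all 3 libraries by a small margin that did not pass (adjusted p = 0.305) and that was not seen in all 3 with FPKM scaled to the mean sum, and *Calr* overlapped.

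Disulfide isomerases form and rearrange the disulfide bonds of secreted proteins. *Pdia3*, whose product ERp57 works with both lectins, had 548, 532 and 511 FPKM at 0 h, 604, 509 and 701 FPKM at 1 h, and 349, 385 and 357 FPKM at 6 h. *Pdia4* had 271, 246 and 240.3 FPKM at 0 h, 273, 252 and 327 FPKM at 1 h, and 156, 181 and 154 FPKM at 6 h. *Pdia6* had 292, 256 and 251 FPKM at 0 h, 277, 248 and 331 FPKM at 1 h, and 173, 204 and 197 FPKM at 6 h. In all 3 genes each 6 h library lay below every earlier one, with log2 changes against 0 h of -0.54 ± 0.11, -0.62 ± 0.11 and -0.48 ± 0.11. *P4hb*, which encodes protein disulfide isomerase itself, also a subunit of the collagen prolyl hydroxylase, had 343, 354 and 343 FPKM at 0 h, 357, 343 and 413 FPKM at 1 h, and 291, 315 and 300.2 FPKM at 6 h. It was 1 of the 2 chaperone and folding genes not called at 6 h against 0 h (-0.20 ± 0.08, adjusted p = 0.0546), although its 6 h libraries were below all others. Scaling each library to the mean FPKM sum made it a call (-0.29, adjusted p = 0.00261).

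The J-domain proteins that hand clients to BiP took different courses. *Dnajb9* (ENSMUSG00000014905, chromosome 12, 44205559 to 44210326, mm10), which encodes ERdj4, an inhibitor of IRE1 through BiP, had 36.4, 44.7 and 43.6 FPKM at 0 h, 92.1, 102 and 117 FPKM at 1 h, and 41.7, 43.9 and 30.7 FPKM at 6 h. It rose at 1 h by 1.30 ± 0.14 (adjusted p = 0.000258), with every 1 h library above every other, and at 6 h the libraries overlapped those at 0 h (-0.11 ± 0.14, adjusted p = 0.529). *Dnajb11*, which encodes ERdj3, had 122, 112 and 111 FPKM at 0 h, 128, 112 and 151 FPKM at 1 h, and 89.6, 99.9 and 91.0 FPKM at 6 h. *Dnajc3*, which encodes p58IPK, a J-domain protein also known as an inhibitor of eIF2 alpha kinases, had 68.0, 62.8 and 63.1 FPKM at 0 h, 64.5, 66.2 and 76.9 FPKM at 1 h, and 39.7, 41.3 and 42.0 FPKM at 6 h. Neither was called at 1 h, and both were called lower at 6 h against 0 h, with log2 changes of -0.29 ± 0.10 and -0.64 ± 0.075 (adjusted p = 0.0312 and 6.5e-05). The *Dnajb11* call was lost when 0 h replicate 1 or 2 or 6 h replicate 1 or 3 was left out (adjusted p = 0.0586 to 0.0994).

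**Figure D3:**
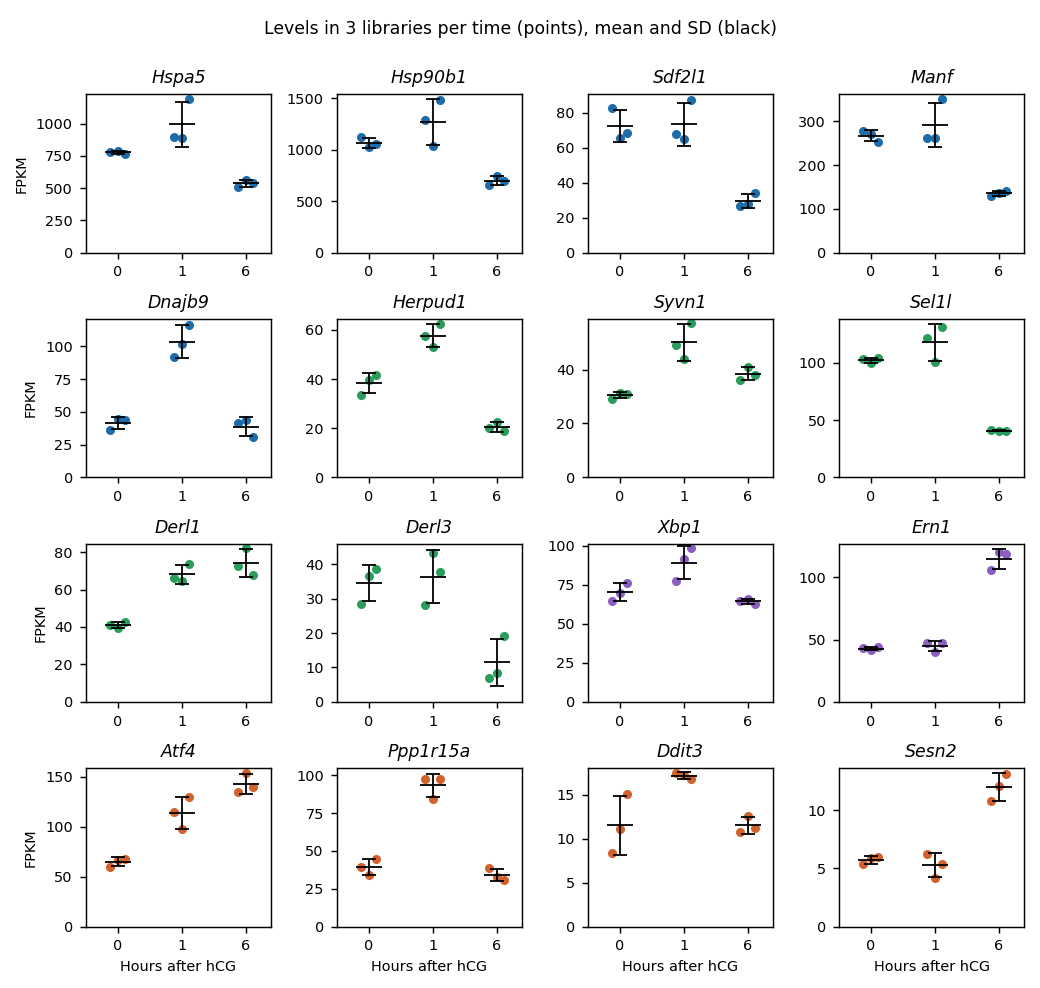
FPKM of 16 genes against hours after hCG. Points are the 3 libraries of a time, and black bars give the mean and SD. *Dnajb9* and *Ppp1r15a* peak at 1 h, *Ern1* and *Sesn2* are high at 6 h, and *Sdf2l1*, *Manf* and *Sel1l* are low at 6 h.

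Among the other stress-inducible residents of the ER lumen, *Sdf2l1*, whose product works with ERdj3, had 83.0, 65.9 and 68.5 FPKM at 0 h, 68.0, 65.1 and 87.6 FPKM at 1 h, and 26.7, 27.9 and 34.1 FPKM at 6 h. *Creld2*, which encodes a protein that is retained in the ER and secreted under stress, had 92.5, 77.6 and 75.5 FPKM at 0 h, 80.5, 85.1 and 116 FPKM at 1 h, and 45.0, 54.0 and 52.4 FPKM at 6 h. *Manf*, which encodes a small BiP-binding protein, had 278, 272 and 253 FPKM at 0 h, 262, 263 and 351 FPKM at 1 h, and 129, 137 and 141 FPKM at 6 h. *Sdf2l1* had the lowest change of the 15 at 6 h against 0 h, -1.26 ± 0.14 (adjusted p = 3.7e-05), followed by *Manf* at -0.97 ± 0.11, whereas both genes differed little at 1 h (0.016 ± 0.14 and 0.11 ± 0.11). *Creld2* was called lower at 6 h with a log2 change of -0.69 ± 0.14 (adjusted p = 0.00202). *Hyou1*, which encodes GRP170, a nucleotide exchange factor for BiP, had 204, 199 and 195 FPKM at 0 h, 221, 201 and 262 FPKM at 1 h, and 142, 160.4 and 174 FPKM at 6 h. Its log2 change at 6 h against 0 h was -0.33 ± 0.10 (adjusted p = 0.0213), a call that was lost when replicate 1 or 2 at 0 h or replicate 1 at 6 h was left out (adjusted p = 0.0525 to 0.0812).

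The 1 h libraries differed among themselves in these genes. Replicate 3 at 1 h had the highest level of the 9 libraries for all 15 chaperone and folding genes, and it also had the highest FPKM sum. The median of the 15, relative to the 0 h mean, was 0.066, -0.028 and -0.053 on the log2 scale in the 0 h replicates 1, 2 and 3, 0.11, -0.017 and 0.39 in the 1 h replicates, and -0.62, -0.47 and -0.57 in the 6 h replicates. Scaling each library to the mean FPKM sum moved the median of all genes by -0.14 at 1 h against 0 h and brought the median of the 15 there to 0.00037, and quantile normalization brought it to -0.11. At 6 h against 0 h the median of the 15 was -0.64 and -0.77 under the same settings. The direction of the small 1 h differences of the chaperones therefore depended on scaling, whereas 14 of 15 were called lower at 6 h against 0 h under either.

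Genes of ER-associated degradation and translocation did not move as a block. At 1 h against 0 h, 3 of 8 rose and 0 fell, with a median log2 change of 0.21 (3 rose and 1 fell with FPKM scaled to the mean sum). At 6 h against 0 h, 2 rose and 4 fell, with a median of -0.23, and at 6 h against 1 h, 0 rose and 5 fell. Of all genes tested, 9.68% rose and 5.98% fell at 1 h against 0 h. The shares were 28.8% and 27.9% at 6 h against 0 h, and 26.7% and 26.9% at 6 h against 1 h. The count of rises at 6 h against 0 h was near its share. The ubiquitin ligase HRD1 (gene *Syvn1*) and its adaptor SEL1L, which form a single complex in the membrane, were called in opposite directions at 6 h against 0 h. *Syvn1* (ENSMUSG00000024807, chromosome 19, 6046576 to 6053712, mm10) had 29.2, 31.5 and 31.1 FPKM at 0 h, 49.0, 44.1 and 57.5 FPKM at 1 h, and 36.3, 41.2 and 38.0 FPKM at 6 h. *Sel1l* (ENSMUSG00000020964, chromosome 12, 91806043 to 91849157, mm10) had 103, 99.7 and 104 FPKM at 0 h, 122, 101 and 132 FPKM at 1 h, and 41.1, 40.8 and 40.7 FPKM at 6 h. *Syvn1* rose by 0.69 ± 0.095 at 1 h (adjusted p = 0.00117) and stayed higher than 0 h by 0.32 ± 0.095 at 6 h (adjusted p = 0.016). *Sel1l* did not pass at 1 h (0.19 ± 0.089, adjusted p = 0.17), but it did when replicate 2 of 1 h was left out (0.30, adjusted p = 0.00907). It fell by 1.30 ± 0.089 at 6 h (adjusted p = 1.86e-06), with no overlap. The *Syvn1* calls rest on the sum of 5 rows: with its most abundant row alone the adjusted p was 0.0783 at 1 h against 0 h, 0.0585 at 6 h against 0 h and 0.693 at 6 h against 1 h. Its call at 6 h against 0 h was also lost on leaving out replicate 1 of 0 h (adjusted p = 0.0549) or replicate 2 of 6 h (adjusted p = 0.0645).

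*Herpud1* (ENSMUSG00000031770, chromosome 8, 94386438 to 94395377, mm10) encodes HERP, a membrane protein that gathers components of the HRD1 complex and is itself short-lived. It had 33.7, 39.4 and 41.7 FPKM at 0 h, 57.7, 53.0 and 62.3 FPKM at 1 h, and 20.0, 22.6 and 18.7 FPKM at 6 h. All 1 h libraries were above and all 6 h libraries below those at 0 h, with log2 changes of 0.58 ± 0.10 at 1 h (adjusted p = 0.00448) and -0.87 ± 0.10 at 6 h (adjusted p = 6.2e-05). Its promoter window, at chr8:94386179-94386478, plus strand, is shown because it held motifs of both arms of the response. ERSE-II (ATTGG, any base, then CCACG), read on the strand of the gene, and CARE (TGATGNAA), read on the opposite strand, are in capitals. ERSE-II was found in 2 of the 30 genes with a window, *Herpud1* and *Dnajb11*, and in 0.0444% of all genes of the table.
*Herpud1* promoter: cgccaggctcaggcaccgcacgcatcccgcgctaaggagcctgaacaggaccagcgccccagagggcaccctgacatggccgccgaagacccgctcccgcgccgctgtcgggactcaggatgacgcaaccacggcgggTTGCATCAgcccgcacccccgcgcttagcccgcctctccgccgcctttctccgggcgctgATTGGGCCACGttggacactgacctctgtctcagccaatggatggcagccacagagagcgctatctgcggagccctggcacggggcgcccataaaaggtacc

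EDEM1, a lectin-like protein, marks misfolded glycoproteins for removal. *Edem1* had 25.1, 25.4 and 26.7 FPKM at 0 h, 29.0, 28.8 and 33.0 FPKM at 1 h, and 23.4, 24.0 and 23.5 FPKM at 6 h. Its levels were highest at 1 h without a call against 0 h (0.23 ± 0.069, adjusted p = 0.0534) and fell at 6 h against 1 h by 0.34 ± 0.069 (adjusted p = 0.0023). The UPRE TGACGTGG, another site at which XBP1 is known to bind, was found in 0 of the 30 windows and in 0.714% of all genes, on either strand.

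Derlins are membrane proteins that help to draw substrates out of the ER, and the 3 genes differed. *Derl1* (ENSMUSG00000022365, chromosome 15, 57869502 to 57892448, mm10) had 40.8, 39.7 and 42.6 FPKM at 0 h, 66.0, 64.6 and 73.9 FPKM at 1 h, and 72.7, 82.4 and 67.8 FPKM at 6 h. *Derl2* had 28.9, 32.9 and 33.6 FPKM at 0 h, 26.5, 25.2 and 33.6 FPKM at 1 h, and 25.2, 25.2 and 23.9 FPKM at 6 h. *Derl3* had 28.5, 36.7 and 38.5 FPKM at 0 h, 28.2, 43.2 and 37.8 FPKM at 1 h, and 6.84, 8.37 and 19.1 FPKM at 6 h. *Derl1* rose by 0.72 ± 0.083 at 1 h and 0.84 ± 0.083 at 6 h (adjusted p = 0.000382 and 2.18e-05) and was not called at 6 h against 1 h (0.12 ± 0.083, adjusted p = 0.249). *Derl3*, a derlin gene that ER stress is known to induce, had the lowest log2 change of the 33 tested genes at 6 h against 0 h, -1.63 ± 0.31 (adjusted p = 0.00136), with a wide spread: 6 h replicate 3 lay well above the other two. *Derl2* was called lower at 6 h with a log2 change of -0.35 ± 0.11, a call lost when replicate 2 or 3 at 0 h or replicate 3 at 6 h was left out (adjusted p = 0.0551 to 0.0621). At 1 h *Derl2* was not called (-0.16 ± 0.11), but scaling to the mean FPKM sum made it a call (-0.32, adjusted p = 0.0361). *Sec61b*, which encodes a subunit of the translocation channel, ranged from 84.4 to 124 FPKM over the 9 libraries and was not called in any comparison.

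The sensor genes moved in opposite directions. *Ern1* (ENSMUSG00000020715, chromosome 11, 106394650 to 106487852, mm10), which encodes the kinase and ribonuclease IRE1 alpha, had 43.0, 41.3 and 43.9 FPKM at 0 h, 47.0, 40.3 and 47.6 FPKM at 1 h, and 106, 120.5 and 118 FPKM at 6 h. *Eif2ak3* (ENSMUSG00000031668, chromosome 6, 70844515 to 70905245, mm10), which encodes PERK, had 17.4, 17.9 and 18.5 FPKM at 0 h, 16.1, 16.7 and 20.2 FPKM at 1 h, and 10.2, 11.9 and 11.3 FPKM at 6 h. *Atf6* had 16.6, 15.9 and 16.6 FPKM at 0 h, 16.8, 15.4 and 16.8 FPKM at 1 h, and 13.2, 13.0 and 11.9 FPKM at 6 h. At 6 h against 0 h *Ern1* rose by 1.40 ± 0.08 (adjusted p = 5.86e-07), the highest log2 change of the 33 tested genes on the log2(FPKM + 1) scale, while *Eif2ak3* fell by 0.65 ± 0.095 and *Atf6* by 0.34 ± 0.073 (adjusted p = 0.00029 and 0.0027). In all 3 genes the 6 h libraries did not overlap the others, and none was called at 1 h, where the log2 changes were 0.07 ± 0.08, -0.027 ± 0.095 and -0.0034 ± 0.073.

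*Xbp1* (ENSMUSG00000020484, chromosome 11, 5520659 to 5525893, mm10) encodes the transcription factor whose mRNA IRE1 splices. It had 64.7, 69.7 and 76.4 FPKM at 0 h, 77.5, 91.2 and 98.3 FPKM at 1 h, and 64.4, 65.9 and 62.6 FPKM at 6 h. It was higher at 1 h by 0.33 ± 0.093 (adjusted p = 0.0377) with all 1 h libraries above all 0 h ones, and at 6 h it overlapped 0 h. The 1 h call was lost in 10 of 16 alternative settings, among them scaling to the mean FPKM sum (0.17, adjusted p = 0.195) and quantile normalization (0.13, adjusted p = 0.402). Spliced and unspliced *Xbp1*, cleaved ATF6 and phosphorylated eIF2 alpha cannot be read from FPKM per gene.

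Several genes of the ATF4 branch rose at each time after hCG. Of its 8 genes 6 were tested: 4 rose and 0 fell at 1 h against 0 h (median log2 change 0.67), and 4 rose and 0 fell at 6 h against 0 h (median 0.65), with *Atf4* and *Ppp1r15b* in both. The 1 h count includes *Ddit3*, whose call was lost in 12 of 16 alternative settings, and without it the count is 3. Under quantile normalization *Ppp1r15a* was also called lower at 6 h against 0 h, which made 4 rises and 1 fall. Without such normalization, 9.68% of all genes tested rose and 5.98% fell at 1 h, and 28.8% rose and 27.9% fell at 6 h. *Atf4* (ENSMUSG00000042406, chromosome 15, 80255184 to 80257541, mm10), the transcription factor of the branch, had 59.6, 66.8 and 68.1 FPKM at 0 h, 115, 97.4 and 129.6 FPKM at 1 h, and 135, 154 and 140.2 FPKM at 6 h. Its 3 groups did not overlap, with changes of 0.80 ± 0.10 at 1 h (adjusted p = 0.000821) and 1.13 ± 0.10 at 6 h (adjusted p = 1.35e-05) against 0 h. The further difference at 6 h against 1 h was 0.33 ± 0.10 (adjusted p = 0.0219), and it was lost without 1 h replicate 2 or 6 h replicate 2 (adjusted p = 0.0629 and 0.0834). ATF4 is regulated mainly by translation, which these libraries do not measure.

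The genes of the eIF2 alpha phosphatase diverged after 1 h. *Ppp1r15a* (ENSMUSG00000040435, chromosome 7, 45522916 to 45526268, mm10), which encodes the inducible subunit GADD34, had 39.2, 34.3 and 44.5 FPKM at 0 h, 97.9, 84.3 and 97.8 FPKM at 1 h, and 38.9, 32.8 and 31.0 FPKM at 6 h. *Ppp1r15b*, which encodes the constitutive subunit CReP, had 30.9, 30.0 and 32.8 FPKM at 0 h, 53.2, 46.7 and 63.9 FPKM at 1 h, and 52.7, 56.2 and 49.3 FPKM at 6 h. At 1 h both rose, by 1.23 ± 0.11 and 0.78 ± 0.11 (adjusted p = 9.23e-05 and 0.00102). At 6 h *Ppp1r15a* overlapped its 0 h values (-0.19 ± 0.11, adjusted p = 0.172), whereas *Ppp1r15b* was still higher by 0.74 ± 0.11 (adjusted p = 0.000238). The *Ppp1r15a* window, at chr7:45526219-45526518, minus strand, was the only window of the set with the cAMP response element TGACGTCA (CRE), a site for factors that respond to the cAMP formed by the luteinizing hormone receptor. The CRE, in capitals, was found in 2.03% of all genes, on either strand.
*Ppp1r15a* promoter: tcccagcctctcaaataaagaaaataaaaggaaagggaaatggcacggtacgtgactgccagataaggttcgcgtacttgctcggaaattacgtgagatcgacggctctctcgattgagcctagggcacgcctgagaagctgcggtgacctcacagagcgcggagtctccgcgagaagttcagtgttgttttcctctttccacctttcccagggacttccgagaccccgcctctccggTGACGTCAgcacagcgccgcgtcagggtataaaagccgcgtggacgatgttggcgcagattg

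*Ddit3* (ENSMUSG00000025408, chromosome 10, 127290774 to 127296288, mm10), which encodes CHOP, a factor that promotes death under lasting stress, had 8.34, 11.1 and 15.1 FPKM at 0 h, 17.5, 17.3 and 16.7 FPKM at 1 h, and 10.7, 12.6 and 11.3 FPKM at 6 h. All 1 h libraries lay above the others, but the 0 h libraries were spread, and the 1 h call (0.57 ± 0.16, adjusted p = 0.0416) was lost in 12 of 16 alternative settings. At 6 h *Ddit3* was not called against 0 h (0.035 ± 0.16, adjusted p = 0.868). It was lower at 6 h than at 1 h (-0.54 ± 0.16, adjusted p = 0.0191), a call lost on leaving out replicate 1 of 1 h (adjusted p = 0.0503), replicate 1 of 6 h (0.0594) or replicate 3 of 6 h (0.0503). Its exons overlap those of *Mars* and *Gm4189* on the opposite strand in GENCODE M21, and no protocol says that the libraries kept strand, so reads of these genes cannot be told apart. Opposite-strand exon overlap was found for 11 of the 35 genes, among them *Hsp90b1*, *Pdia3*, *Pdia6*, *Dnajb9*, *Manf*, *Syvn1*, *Derl2*, *Eif2ak3*, *Ppp1r15a* and *Ppp1r15b*.

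Targets of ATF4 in amino acid and redox metabolism changed at 6 h. *Asns* (ENSMUSG00000029752, chromosome 6, 7675169 to 7693254, mm10), which encodes asparagine synthetase, had 7.35, 6.82 and 6.80 FPKM at 0 h, 6.28, 9.47 and 7.72 FPKM at 1 h, and 10.4, 11.0 and 10.9 FPKM at 6 h. *Sesn2* (ENSMUSG00000028893, chromosome 4, 132492032 to 132510501, mm10), which encodes a leucine-binding inhibitor of mTORC1, had 5.38, 5.88 and 5.97 FPKM at 0 h, 6.25, 4.21 and 5.40 FPKM at 1 h, and 10.8, 12.1 and 13.1 FPKM at 6 h. Neither passed at 1 h, where the libraries overlapped those at 0 h. Both rose at 6 h, by 0.56 ± 0.12 and 0.94 ± 0.13 (adjusted p = 0.00321 and 0.000169), with every 6 h library above every other. The *Asns* window, at chr6:7693160-7693459, minus strand, is shown because it held the CARE, the element at which ATF4 and C/EBP factors are known to bind, in capitals on the strand of the gene.
*Asns* promoter: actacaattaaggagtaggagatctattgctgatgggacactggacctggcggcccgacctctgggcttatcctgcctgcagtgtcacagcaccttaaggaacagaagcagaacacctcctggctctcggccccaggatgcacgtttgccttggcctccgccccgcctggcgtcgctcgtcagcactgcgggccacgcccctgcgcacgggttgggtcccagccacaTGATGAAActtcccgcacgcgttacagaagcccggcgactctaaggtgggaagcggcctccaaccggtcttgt
The CARE was found in 3 of the 7 ATF4 branch genes with a window, *Asns*, *Trib3* and *Chac1*, in 0 of the 13 chaperone and folding genes and, on either strand, in 4.51% of all genes.

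*Trib3*, which encodes a pseudokinase, and *Chac1*, which encodes an enzyme that degrades glutathione, are known as sensitive targets of ATF4 and CHOP together. *Trib3* had 0.537, 0.508 and 0.455 FPKM at 0 h, 0.246, 0.260 and 0.792 FPKM at 1 h, and 0.455, 0.673 and 0.872 FPKM at 6 h. *Chac1* had 0.301, 0.203 and 0.106 FPKM at 0 h, 0.157, 0.333 and 0.169 FPKM at 1 h, and 0.932, 0.457 and 0.762 FPKM at 6 h. Both stayed below 1 FPKM in all 9 libraries, and *Trib3* overlapped between all times. With no filter on low values *Chac1* was higher at 6 h against 0 h by 0.51 on the log2 scale (adjusted p = 0.00689), from a level at the low end of these tables, and *Trib3* was not called (0.15, adjusted p = 0.487).

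**Figure D4:**
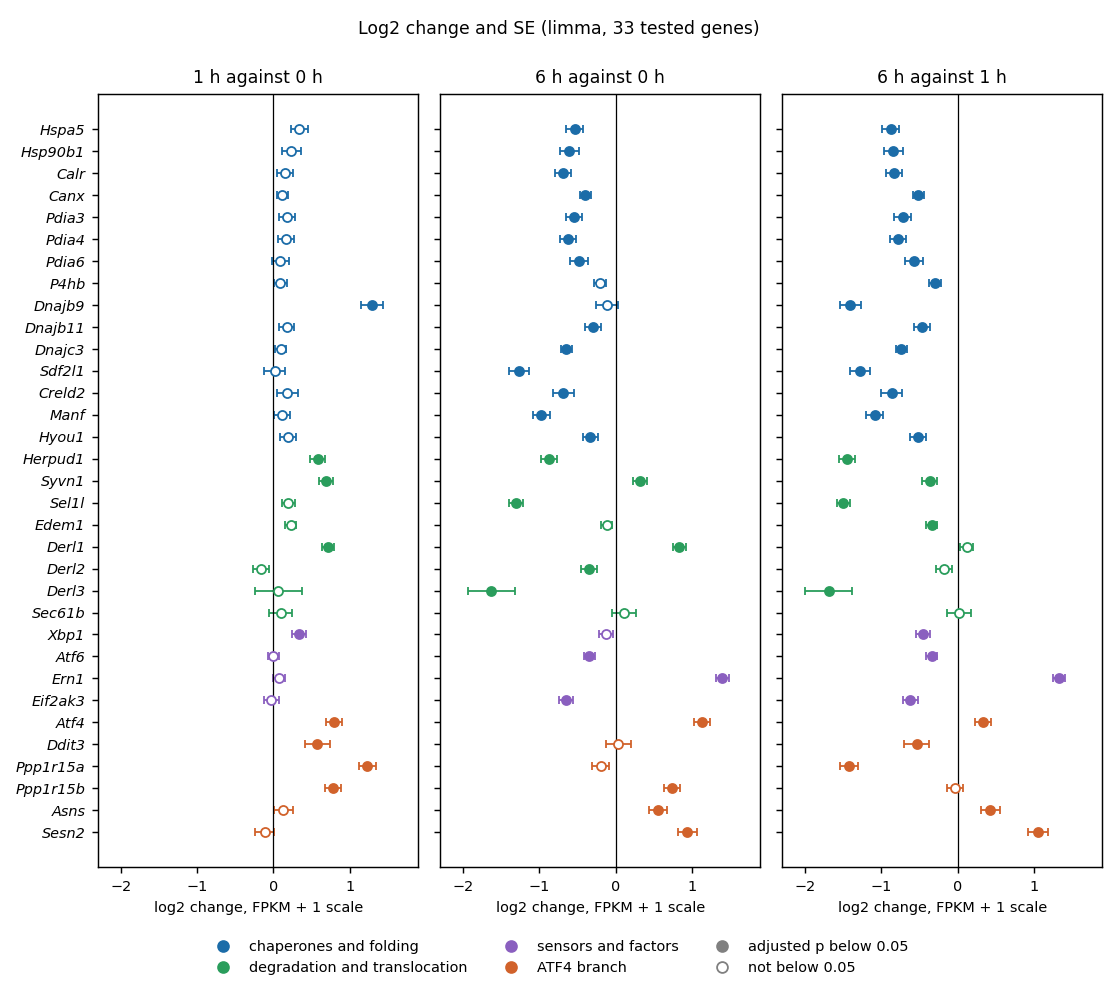
Log2 change on the FPKM + 1 scale (x axis) with its SE for the 33 tested genes in each comparison. Filled points had an adjusted p below 0.05. In the middle panel the chaperones lie left of 0, from -1.26 for *Sdf2l1* to -0.11 for *Dnajb9*, while *Ern1* (1.40) and *Atf4* (1.13) lie farthest right.

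Set side by side, the 23 chaperone, folding and degradation genes had 4 rises and 0 falls at 1 h against 0 h and 2 rises and 17 falls at 6 h against 0 h, with medians of 0.17 and -0.54 (4 rises and 1 fall at 1 h with FPKM scaled to the mean sum). The 6 tested genes of the ATF4 branch had 4 rises and 0 falls in each, with medians of 0.67 and 0.65, or 0.52 and 0.56 with FPKM scaled to the mean sum, where the 1 h count was 3 rises and 0 falls. Only *Atf4* and *Ppp1r15b* of the 6 rose at both times. Of all genes tested 9.68% were called higher and 5.98% lower at 1 h, and 28.8% higher and 27.9% lower at 6 h. In the 6 h libraries the median of the 23 lay between -0.61 and -0.46 relative to the 0 h mean, and that of the 6 lay between 0.61 and 0.71. Within a library the level of *Atf4* was 0.0761 to 0.0892 of that of *Hspa5* at 0 h, 0.109 to 0.129 at 1 h and 0.260 to 0.274 at 6 h, ratios that library scaling does not touch. That pair was chosen after its values were seen.

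Further genes of the pathway were taken from general knowledge of the response. Of 28 tested other folding and redox genes of the ER, 1 rose and 0 fell at 1 h against 0 h, and 0 rose and 19 fell at 6 h against 0 h, with a median of -0.39 at 6 h. With FPKM scaled to the mean sum the 1 h count became 0 and 2, and the 6 h count 0 and 22. Among them were *Sil1*, a nucleotide exchange factor for BiP, at -1.25 ± 0.10, *Cnpy3*, a helper of GRP94, at -1.01 ± 0.088, and the prolyl isomerase gene *Fkbp7* at -0.99 ± 0.10. At 1 h *Txndc11*, which encodes a thioredoxin-domain protein, rose (0.38 ± 0.10, adjusted p = 0.0319). Of 27 tested other degradation genes 2 rose and 0 fell at 1 h against 0 h, and 7 rose and 6 fell at 6 h, with a median of -0.032 at 6 h. Over all tested genes 9.68% were called higher and 5.98% lower at 1 h, and 28.8% and 27.9% at 6 h, so the shares of these degradation genes at 6 h were near the background. With FPKM scaled to the mean sum these counts became 2 and 4 at 1 h and 7 and 10 at 6 h. The genes of the ubiquitin-conjugating enzymes of the ER, *Ube2j1* and *Ube2j2*, were among the risers at 6 h (0.76 ± 0.12 and 0.84 ± 0.13), whereas the lectin gene *Erlec1* fell (-0.77 ± 0.093). *Ube2j1* had already risen at 1 h (0.72 ± 0.12), with the selenoprotein gene *Selk* (0.51 ± 0.081).

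Of 16 other sensors and regulators, 2 rose and 1 fell at 1 h against 0 h, and 6 rose and 8 fell at 6 h against 0 h (1 and 5 at 1 h, and 3 and 9 at 6 h, with FPKM scaled to the mean sum). Without scaling, 9.68% of all genes tested rose and 5.98% fell at 1 h, and 28.8% rose and 27.9% fell at 6 h. *Creb3l1* and *Creb3*, which encode membrane-bound factors related to ATF6, rose at 6 h by 2.08 ± 0.18 and 1.39 ± 0.11. Both had already been called higher at 1 h against 0 h (1.25 ± 0.18 and 0.40 ± 0.11, adjusted p = 0.00137 and 0.0413). Their relatives *Creb3l2* (-0.65 ± 0.092) and *Atf6b* (-0.33 ± 0.093) were called lower at 6 h against 0 h. *Creb3l1* averaged 20.1 ± 2.09 FPKM at 6 h and 4.09 ± 1.30 FPKM at 0 h (SD, n = 3 each). *Wfs1*, which encodes wolframin, fell to 11.0 ± 0.648 FPKM at 6 h, against 24.2 ± 0.576 FPKM at 0 h (-1.07 ± 0.069). It had already been called lower at 1 h against 0 h (-0.36 ± 0.069, adjusted p = 0.00674). *Mbtps1*, which encodes the protease that makes the first cut in ATF6, was lower at 6 h than at 1 h (-0.93 ± 0.068).

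Of 27 tested other targets of ATF4, 7 rose and 0 fell at 1 h against 0 h (median 0.14), and 16 rose and 3 fell at 6 h against 0 h (median 0.51). With FPKM scaled to the mean sum these counts became 6 and 3 at 1 h and 16 and 4 at 6 h. The shares of all genes tested, without scaling, were 9.68% higher and 5.98% lower at 1 h, and 28.8% and 27.9% at 6 h. At 6 h the cystine transporter gene *Slc7a11* reached 23.6 ± 7.78 FPKM, against 0.707 ± 0.209 FPKM at 0 h (3.80 ± 0.22). It was below 1 FPKM in every 0 h library and passed the filter through the later times. *Cebpb*, which encodes a partner of ATF4 on the CARE, averaged 268 ± 173 FPKM at 6 h and 21.9 ± 6.71 FPKM at 0 h (3.41 ± 0.38), with a wide spread. The stress cofactor gene *Nupr1* rose by 2.50 ± 0.23. The 3 that fell at 6 h against 0 h were *Slc7a5* (-0.93 ± 0.090), *Shmt2* (-0.55 ± 0.066) and *Pck2* (-0.43 ± 0.091). At 1 h the arginine transporter gene *Slc7a1* (1.95 ± 0.16) and the mTORC1 inhibitor gene *Ddit4* (1.95 ± 0.22) had the highest changes of the list. Several of these genes also respond to other signals.

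**Figure D5:**
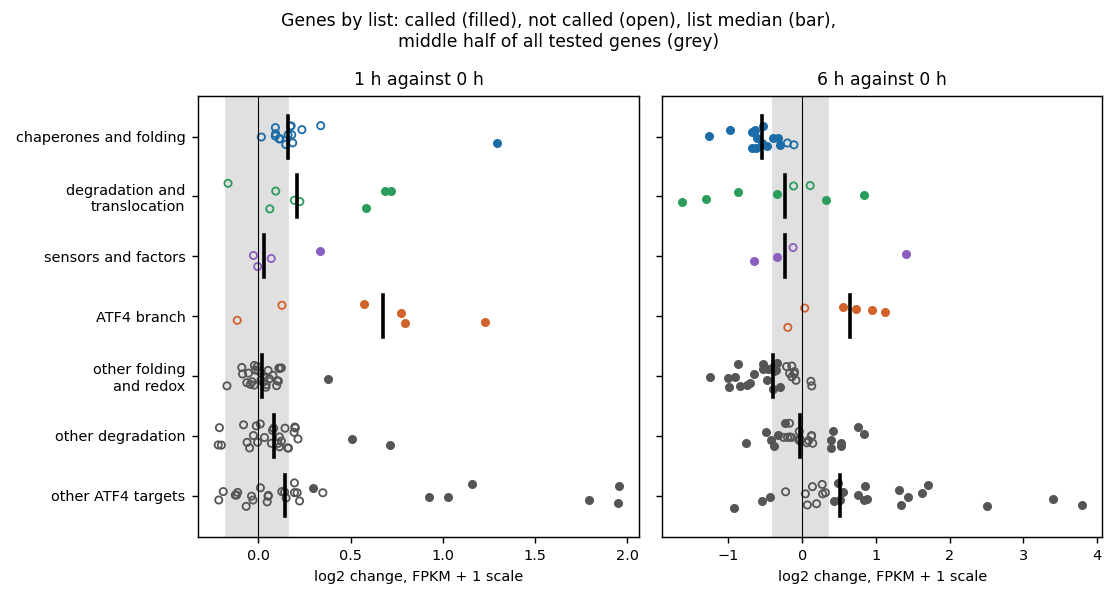
Log2 change (x axis) of each tested gene by list, at 1 h against 0 h and at 6 h against 0 h. Filled points were called, open points were not, black bars are list medians and the grey band spans the lower to the upper quartile of all tested genes. At 6 h the medians of the chaperones (-0.54) and of the other folding genes (-0.39) lie left of 0, and those of the ATF4 branch (0.65) and of the other ATF4 targets (0.51) right of it.

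Markers of other cell types and of handling were read in the same libraries. Of 13 heat-shock and dissociation stress genes 10 rose and 0 fell at 1 h against 0 h (6 and 0 under quantile normalization), and 7 rose and 0 fell at 6 h. *Junb* (2.87 ± 0.12) and the cochaperone gene *Bag3* (1.28 ± 0.13) led at 1 h. The 13 genes summed to 1210 to 1466 FPKM at 0 h, 2625 to 2911 FPKM at 1 h and 1695 to 1884 FPKM at 6 h. The list includes *Fos*, *Fosb*, *Jun* and *Junb*, and *Junb* averaged 77.7 FPKM at 0 h, 579 FPKM at 1 h and 122 FPKM at 6 h. Whether the rises of this list came with handling or with hCG was not tested. All 10 tested oocyte markers rose at 6 h against 0 h (9 with FPKM scaled to the mean sum, and 6 on leaving out replicate 2 of 0 h, replicate 3 of 0 h or replicate 3 of 6 h), and the 12 listed summed to 47.8 to 76.0 FPKM at 0 h, 61.9 to 76.8 FPKM at 1 h and 88.0 to 133 FPKM at 6 h. Of 9 granulosa cell markers 8 fell and 0 rose at 6 h. Of 10 theca and stroma markers 0 rose and 3 fell at 6 h (summed level 114 to 142 FPKM at 6 h and 201 to 318 FPKM at 0 h). Of 7 endothelial markers 3 rose and 0 fell (29.1 to 42.9 FPKM at 6 h and 25.3 to 33.6 FPKM at 0 h). Of 3 tested leukocyte markers 1 fell and of 4 tested erythroid markers 2 fell. For comparison, 9.68% of all genes tested were called higher and 5.98% lower at 1 h against 0 h. At 6 h against 0 h, 28.8% were called higher and 27.9% lower. The falls of the theca and stroma markers were near that share, and the endothelial, leukocyte and erythroid lists hold few tested genes. The part of cell composition and handling in the changes of the chaperone and ATF4 branch genes was not tested.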

How the data were processed

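RNA-seq libraries of granulosa cells were analysed, 3 each at 0, 1 and 6 h after hCG. Per the labels' protocols, Trizol was used for extraction and 1 µg of RNA went into each TruSeq library. The submitters' processing notes name HISAT2 2.0.5 and the genome build mm10. The authors deposited FPKM per row for 54759 rows a library. What computed the FPKM values, with which annotation and strand setting, is not given in the sources used here.

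Rows were summed per gene identifier (71 rows for the 35 genes, 18 of which had more than 1). A gene was tested if 3 or more libraries reached 1 FPKM (14535 genes). The test was limma 3.58.1 (R 4.3.3) on log2(FPKM + 1), with a prior variance that follows the mean and 1 fit of the 3 group means (6 residual degrees of freedom). P-values were adjusted by Benjamini-Hochberg over all genes tested. The planned test allowed for counts or FPKM, and FPKM was found. On simulated data with 200 changed genes among 14535, 91%, 93% and 90% of 2-fold changes were recovered in the 1 h against 0 h, 6 h against 0 h and 6 h against 1 h comparisons, with 7, 13 and 7 false calls. The changed genes were drawn only from genes with a mean well above the filter. Noise was normal and all other genes were left unchanged. These figures therefore do not carry over to genes of low level or to comparisons in which many genes change.

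The genes, the further lists and the tests were chosen with earlier results of these data known. The naming rule gives every library's value for each of the 35 genes called in at least 1 comparison and for the sensors, and up to 3 called genes with the largest change per other list and comparison. Some further genes of these lists were named outside the rule, to show what a list includes or which genes went the other way. Coordinates are from GENCODE M21 and promoter windows from RefSeq (GRCm38.p6), where *Atf6*, *Derl1*, *Hyou1*, *Manf* and *Ppp1r15b* had none. Alternatives were another pseudocount, no filter, FPKM scaled to the mean sum, quantile normalization, the most abundant row of a gene, only the 2 times compared, a replicate block, and leaving out each library.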

Additional observations from a re-analysis of the deposited data

Results flagged for a closer look

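In 4 genes the differences at 1 h and at 6 h against 0 h pointed in opposite directions in every library: all 3 libraries at 1 h lay above, and all 3 at 6 h below, the 3 at 0 h. They were *Hspa5*, *Canx*, *Herpud1* and *Edem1*. After scaling to the mean FPKM sum the pattern held for 2 of them, *Hspa5* and *Herpud1*, while the 1 h libraries of *Canx* and *Edem1* no longer all lay above those at 0 h. Both differences share the 0 h libraries, so the difference between them is the comparison of 6 h with 1 h. The genes were picked by this pattern and by an adjusted limma p below 0.05 at 6 h against 1 h. Their low p-values there were therefore set by the choice and are no test of the pattern. The log2 change at 6 h against 1 h was -0.88 ± 0.11 for *Hspa5*, -0.52 ± 0.072 for *Canx*, -1.45 ± 0.10 for *Herpud1* and -0.34 ± 0.069 for *Edem1* (SE), with adjusted p-values of 0.000153, 0.000234, 2.66e-06 and 0.0023. Of the 4, only *Herpud1* was itself called higher at 1 h against 0 h. Among all genes tested, 18.3% had every 1 h library above 0 h and 32.1% had every 6 h library below 0 h. The share of all genes with both was not counted, so whether the pattern is more frequent in this set is not known.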

How the results depend on the processing

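Over 16 alternatives the number of the 33 genes called higher at 1 h against 0 h was 7 to 12, and the numbers higher and lower were 6 to 7 and 16 to 23 at 6 h against 0 h, and 3 to 4 and 24 to 25 at 6 h against 1 h. With no filter on low values *Chac1* added 1 rise to each comparison of 6 h. Leaving out a library gave 7 to 12 higher and 0 lower at 1 h against 0 h, 6 to 7 and 16 to 20 at 6 h against 0 h, and 3 to 4 and 24 to 25 at 6 h against 1 h. With FPKM scaled to the mean sum 1 gene, *Derl2*, was called lower at 1 h against 0 h, where the main count was 0; the scaling itself moved the median of all genes by -0.14. Of 1584 values (99 gene comparisons under 16 alternatives), 42 lost a call, 16 gained one and 0 calls reversed, while 56 values not called under either setting changed sign. Of 64 calls, 54 were kept under all 16. The replicate block gave the same counts of calls, 9 and 0, 7 and 19, and 4 and 25; after group means were removed, same-numbered libraries had correlations of -0.078 to 0.15 (9 pairs, 4 of them over 0.1) and other pairs -0.15 to 0.086 (18 pairs). Not every same-numbered pair passed 0.1, so the numbers were not taken as pairing, although 8 of 9 libraries correlated best, on average, with their own number, a hint from the data and not from the design. Depth is unknown, so no limit of detection can be given for *Trib3* and *Chac1*. Low levels, summed rows of uncertain assignment and 3 libraries a time limit the smaller changes, and strand and cell composition remain as stated above.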

Other observations

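The ratio between the genes of IRE1 and PERK, the kinases of the response, stood apart in the 6 h libraries and overlapped between 1 h and 0 h. The level of *Ern1* was 2.31 to 2.47 times that of *Eif2ak3* in the 0 h libraries, 2.36 to 2.92 times in the 1 h libraries and 10.2 to 10.5 times in the 6 h libraries. The pair was chosen after its values were seen, and library scaling does not touch the ratio.

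In the group means, the rows behind 2 degradation genes had other shares at 1 h than at 0 h and 6 h. These 2 were picked, with the shares seen, from the 18 genes with more than 1 row. The most abundant of 5 *Syvn1* rows held 62.9% of the gene's mean FPKM at 0 h, 50.6% at 1 h and 63.1% at 6 h. By library its shares at 1 h and 6 h met. The row held 24.6 of 44.1 FPKM in 1 h replicate 2 and 21.2 of 38.0 FPKM in 6 h replicate 3. The most abundant of 3 *Derl2* rows held 56.1% at 0 h, 67.4% at 1 h and 54.8% at 6 h. The tables give no transcript names for these rows, and the shares were not tested.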
